A study of Saccharomyces cerevisiae with 16 samples.

Results

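The data described here are the ribosome footprints of WT yeast with and without urea, and the change in translation efficiency that they give. They were chosen as the 4 Riboseq libraries of WT among the 16 libraries of the series, 2 from cultures with 3% urea and 2 from cultures without it. The 4 RNAseq libraries of the same cultures were used to express footprints relative to RNA. Translation efficiency (TE) is the footprint level divided by the RNA level of a gene, so the TE change is the footprint change less the RNA change. The libraries are from Saccharomyces cerevisiae, labelled BY4741 and wild type. According to the study the strain is a MATa haploid with the genotype his3Δ1 leu2Δ0 ura3Δ0 met15Δ0 tif3Δ0. It carried a single-copy plasmid with HIS3, LEU2, URA3, MET15 and TIF3, the gene of the initiation factor eIF4B, so in WT eIF4B was made from the plasmid in urea and SD cultures alike. The urea group grew in synthetic dextrose medium (SD, with ammonium sulfate as nitrogen source) to which 3% urea was added, and the SD group grew in the same medium alone. All cultures were taken in the middle of exponential growth, so the values describe cells growing in urea and not the first minutes after its addition. The other 8 libraries are from a strain whose eIF4B lacks its amino-terminal domain (Δntd) and were used only for the check of the shared spread and the strain difference.

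Ribosome profiling sequences the mRNA pieces that ribosomes shield from nuclease, so the footprints on a gene count the ribosomes that were on it. Footprints can change because the RNA changed, because each RNA carried more or fewer ribosomes, or both, and TE separates these. Urea enters yeast through the transporter Dur3 and is broken down to ammonium by urea amidolyase (DUR1,2), so it is a nitrogen source as well as an agent that loosens RNA and protein folds at high concentration. In yeast the GATA factors Gln3 and Gat1 turn on genes for the use of poor nitrogen sources, the SPS sensor turns on amino acid permeases when amino acids are outside the cell, and Gcn4 turns on amino acid synthesis. Gcn4 is itself controlled at translation, through short reading frames ahead of its own.

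The Riboseq totals were 4803862 and 3067506 counted reads in the urea cultures, against 17380262 and 14248946 in the SD cultures. The RNAseq totals were 3401612 and 5169546 in the urea cultures, against 3335774 and 3225217 in the SD cultures. Footprint depth therefore differed between the groups throughout, and when the Riboseq libraries were thinned to the shallowest one, 89 genes were called higher and 87 lower for TE, against 172 and 138 at full depth. The biological coefficient of variation between replicates was 0.0459 for Riboseq in urea and 0.0559 in SD. All 8 a-specific genes had RNA counts in every WT library, with a summed level of 2385 and 2393 CPM (the count rate in a library, scaled by TMM) in the urea cultures, against 1876 and 1769 CPM in the SD cultures. The 4 α-specific genes summed to 16.6 and 17.8 CPM in the urea cultures, against 24.5 and 23.2 CPM in the SD cultures. With 2 cultures in a group, and nothing in the labels that says how far they were separate, p-values measure the spread between these cultures only.

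The calls differ in number between the measures. Footprints were called at many genes and mostly moved with the RNA, while TE was called at few. Few calls do not mean few TE changes, since 1083 of 5213 genes had an unadjusted p under 0.05 for TE (edgeR's quasi-likelihood test). Footprints were called higher in urea for 784 (14.9%) and lower for 767 (14.6%) of 5256 genes, 29.5% in all, at a Benjamini-Hochberg adjusted p under 0.05. The test was edgeR's quasi-likelihood test, here and for every call and adjusted p below. RNA was called higher for 859 (15.9%) and lower for 772 (14.2%) of 5419 genes, 30.1% in all. TE was called higher for 172 (3.3%) and lower for 138 (2.65%) of the 5213 genes tested in both assays, 5.95% in all. Of those 5213 genes, RNA was called higher for 16.4% and lower for 14.3%, 30.6% in all, and footprints for 15.0% and 14.6%, 29.6% in all. The counts of the gene lists below can be read against these shares. Across the 5213 genes, the footprint change and the RNA change had a Pearson r of 0.75 and a Spearman rho of 0.58, which is a description across genes that share the same cultures. With library totals in place of TMM, the median over all genes was −0.11 for RNA and −0.12 for footprints on the log2 scale, and footprints were called higher for 478 and lower for 1207 genes and RNA for 548 and 1302, so changes are given relative to the median gene.

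Genes were sorted by their RNA, footprint and TE calls. Footprints followed the RNA, with both called the same way and no TE call, at 807 genes (15.5%), 425 higher and 382 lower. They exceeded it, with RNA, footprints and TE called the same way, at 43 genes (0.825%), 26 higher and 17 lower. Footprints changed without an RNA call but with a TE call at 124 genes (2.38%), 79 higher and 45 lower. The RNA change was damped, with TE called against the RNA and footprints not called against it, at 115 genes (2.21%). Footprints opposed the RNA, with both called in opposite directions, at 22 genes (0.422%), 17 of them with RNA lower and footprints higher in urea and 5 the reverse. RNA alone was called at 610 genes (11.7%), 541 (10.4%) had another pattern of calls and 2951 (56.6%) had none.

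**Figure D1:**
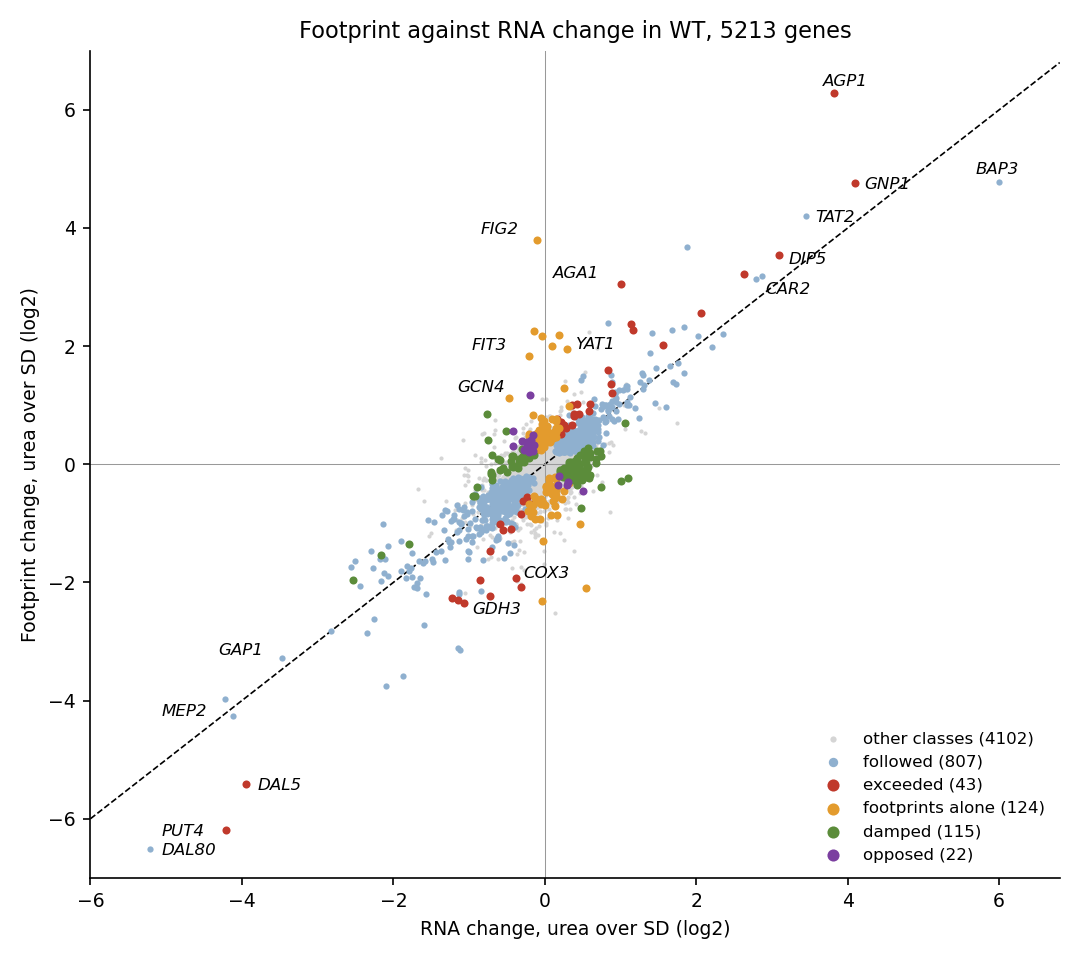
Footprint change against RNA change (log2, urea over SD) for the 5213 genes tested in both assays, 1 point a gene, coloured by the pattern of calls, with the dashed line where the changes are equal. AGP1 and GNP1 lie at the upper right, DAL80, PUT4 and DAL5 at the lower left, and FIG2, GCN4, FIT3 and YAT1 lie above the line near an RNA change of 0.

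TE calls depended on single cultures more than footprint calls did. Of the 310 TE calls, 140 remained without SD culture 1, 143 without SD culture 2, 27 without urea culture 1 and 83 without urea culture 2. The calls that remained with each of the 4 left out were 16, of which 13 were higher in urea (AGP1, AGA1, FIG2, FIT3, GCN4, HMG2, MSB2, PDR5, PDR12, SEN1, TPO4, YAT1 and YBT1) and 3 lower (DAL5, PMP2 and SML1). Of 1551 footprint calls, 750 remained with each culture left out. A fit of all 16 libraries takes its spread partly from the Δntd urea Riboseq libraries, whose coefficient of variation was 0.239. In that fit 7 TE calls remained: AGP1, GCN4, FIG2, FIT3, HMG2 and PDR12 higher, and COX3 lower. These genes were singled out after their values were seen. With DESeq2 in place of edgeR, 139 of the 310 TE calls remained, but not those of FIG2, FIT3 and YAT1. The COX3 footprints rest on few counts in urea.

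The TE change moved with the length of the coding sequence, which no list below was chosen by. The median TE change was −0.18 (log2) in the shortest of 10 length classes (78 to 468 nucleotides, n = 521 genes) and 0.21 in the longest (2853 to 14733 nucleotides, n = 521 genes). The footprint medians of those classes were −0.19 and 0.16, and their RNA medians −0.01 and −0.06. TE was called higher for 5 genes (0.96%) of the shortest class and 82 (15.7%) of the longest, and lower for 41 (7.87%) of the shortest and 0 (0.0%) of the longest. Spearman's rho with coding length was 0.40 for TE, 0.32 for footprints and −0.02 for RNA across genes, and for TE it was 0.32 to 0.39 with each culture left out. Between replicates of a group, it was 0.05 for footprints in urea and −0.15 in SD. What this trend comes from was not tested. TE changes are therefore also given after a smooth trend on length was removed from each library, a step chosen with the trend already in view, under which 88 genes (1.69%) were called higher and 61 (1.17%) lower, and 121 of the 310 calls remained.

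**Figure D2:**
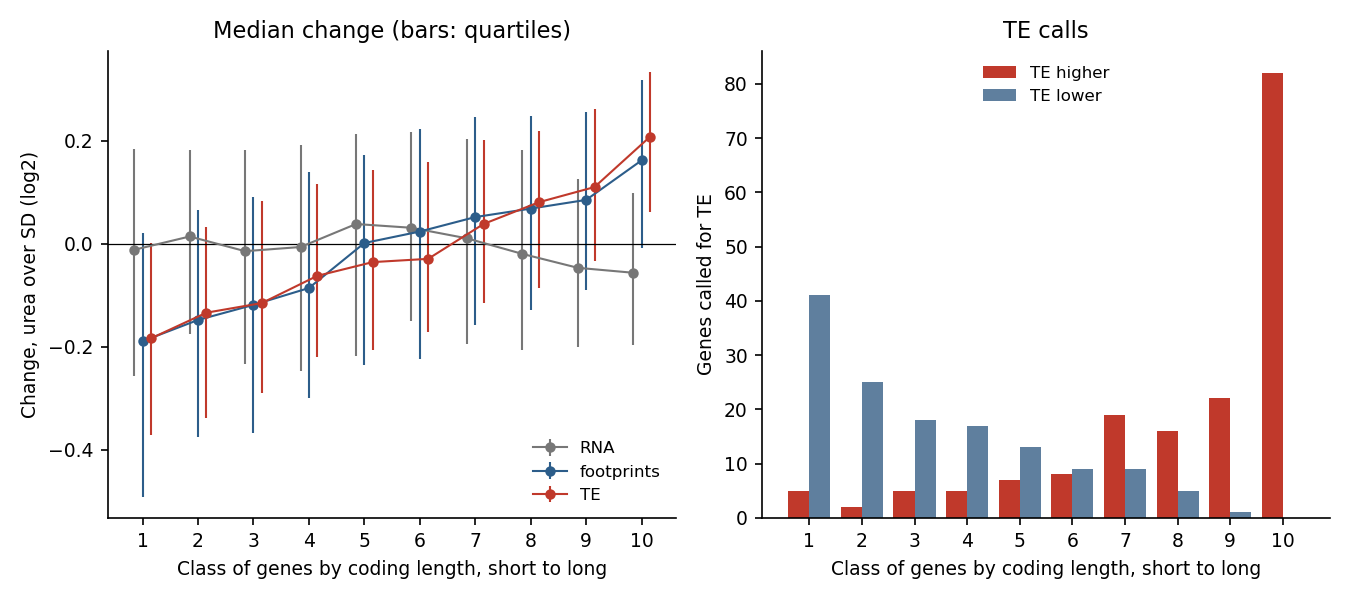
Change in 10 classes of genes in order of coding length, from short to long. The left panel gives the median RNA, footprint and TE change (log2, urea over SD) with bars for the quartiles, and the right panel the number of genes called for TE. RNA medians stay near 0 while TE medians run between −0.18 and 0.21, and the 82 calls of higher TE in the longest class stand well above the other classes.

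The footprint changes of the largest size were in nitrogen genes, where they went the way of the RNA. Gene positions below are those of the coding sequence in RefSeq's build R64. AGP1 (YCL025C, chrIII:76018-77919, minus strand) is a broad amino acid permease induced through the SPS sensor. It gave 278 and 256 CPM in the urea cultures, against 3.06 and 3.82 CPM in the SD cultures. Its RNA was at 313 and 323 CPM in the urea cultures, against 29.1 and 15.7 CPM in the SD cultures. Both urea cultures were far above both SD cultures in each assay. The footprint change was 6.29 ± 0.12 (log2, SE; adjusted p = 2.08e-25), 78.2-fold, and the RNA change 3.82 ± 0.13. The TE of AGP1 was 0.887 and 0.794 in the urea cultures, against 0.105 and 0.243 in the SD cultures, a TE change of 2.47 ± 0.22 (adjusted p = 2.42e-11).

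GNP1, a permease for glutamine and other amino acids, gave 433 and 448 CPM in the urea cultures, against 16.1 and 16.2 CPM in the SD cultures of footprints, and 403 and 399.9 CPM in the urea cultures, against 21.6 and 25.3 CPM in the SD cultures of RNA. The groups were far apart in both assays. The TE of GNP1 was 1.07 and 1.12 in the urea cultures, against 0.747 and 0.642 in the SD cultures, a smaller step than that of AGP1 (0.66 ± 0.15, adjusted p = 0.00437, and 0.116 without SD culture 2 and 0.0526 without urea culture 1). DIP5, which takes up acidic amino acids, gave 330.0 and 338 CPM in the urea cultures, against 27.6 and 29.5 CPM in the SD cultures of footprints, with an RNA change of 3.10, a footprint change of 3.55 and a TE change of 0.45 (adjusted p = 0.0248, but 0.388 without SD culture 1, 0.215 without urea culture 1, 0.0935 without urea culture 2 and 0.0857 with the length trend removed). The footprints of TAT2, a tryptophan and tyrosine permease, were at 38.1 and 41.1 CPM in the urea cultures, against 1.92 and 2.37 CPM in the SD cultures, and followed an RNA change of 3.45 with no TE call (0.74 ± 0.28, adjusted p = 0.114). BAP3, a branched-chain permease, had 23 and 11 footprint counts in the urea cultures, against 3 and 2 in the SD cultures. The summed counts, scaled for depth, were 29.5-fold higher in urea (exact 95% interval 11.5 to 96.7, for counting error only). Its RNA had 35 and 60 counts in the urea cultures, against 1 and 0 in the SD cultures (78.1-fold, 13.7 to 3117). Of the 17 tested of 18 SPS-regulated permeases and sensors, footprints rose for 10 and fell for 2, RNA rose for 8 and fell for 2, and TE rose for 3, or 1 without urea culture 1. Footprint rises were 6 without SD culture 1 and 6 without urea culture 1.

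The 2 genes of urea use rose in both assays. DUR3, the urea transporter, gave 209 and 185 CPM in the urea cultures, against 30.3 and 37.1 CPM in the SD cultures of footprints, a change of 2.55 ± 0.10 beside an RNA change of 2.06 ± 0.08. Its TE change was 0.50 ± 0.13 (adjusted p = 0.0162), which lost its call without SD culture 1 (0.295), without urea culture 1 (0.379), without urea culture 2 (0.05004) and with the length trend removed (0.0768). DUR1,2, urea amidolyase, gave 3201 and 3128 CPM in the urea cultures, against 698 and 703 CPM in the SD cultures of footprints and 5264 and 5318 CPM in the urea cultures, against 1321 and 1288 CPM in the SD cultures of RNA. Its footprints followed its RNA (2.18 and 2.02, TE change 0.16 ± 0.09, adjusted p = 0.302). CAR2, ornithine transaminase of arginine breakdown, followed in the same way, with 407 and 384 CPM in the urea cultures, against 46.98 and 42.8 CPM in the SD cultures of footprints (TE change 0.35 ± 0.14, adjusted p = 0.141). CAR1, arginase, was not called in either assay, with footprint and RNA changes of 0.30 and 0.11.

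Genes for poor nitrogen sources fell. DAL80, a GATA repressor whose own gene is under GATA control, had 0.645 and 1.71 CPM in the urea cultures, against 94.9 and 99.6 CPM in the SD cultures of footprints and 2.42 and 3.83 CPM in the urea cultures, against 118 and 126 CPM in the SD cultures of RNA. The urea footprints rest on 3 and 5 counts, against 1677 and 1514 in the SD cultures, and the summed counts were 91.9-fold lower in urea (exact 95% interval 46.6 to 213, for counting error only). The fitted changes were −6.51 ± 0.22 for footprints and −5.21 ± 0.17 for RNA. The ± of the footprint change is taken from the test statistic and is narrower than that counting interval. The TE change of −1.28 ± 0.53 was not called (adjusted p = 0.144). The ammonium permease MEP2 had 118 and 112 CPM in the urea cultures, against 2200.2 and 2235 CPM in the SD cultures of footprints, and followed its RNA (TE change −0.16 ± 0.10, adjusted p = 0.397). The general amino acid permease GAP1 did too, with 309 and 347 CPM in the urea cultures, against 3252 and 3106 CPM in the SD cultures of footprints (TE change 0.18 ± 0.09, adjusted p = 0.259).

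In DAL5 and PUT4 the footprints fell further than the RNA. DAL5 (YJR152W, chrX:719666-721297, plus strand), the permease for allantoate, had 7.31 and 6.51 CPM in the urea cultures, against 297 and 299.6 CPM in the SD cultures of footprints and 21.5 and 16.9 CPM in the urea cultures, against 286 and 294 CPM in the SD cultures of RNA. Its TE was 0.340 and 0.384 in the urea cultures, against 1.04 and 1.02 in the SD cultures, so both urea cultures were under both SD cultures by a wide gap (−1.47 ± 0.22, adjusted p = 1.76e-05). PUT4 (YOR348C, chrXV:986899-988782, minus strand), the proline permease, had 2.58 and 1.03 CPM in the urea cultures, against 152 and 139 CPM in the SD cultures of footprints and 7.87 and 7.06 CPM in the urea cultures, against 128 and 146 CPM in the SD cultures of RNA. PUT4 footprints in urea rest on 12 and 3 counts, against 2690 and 2107 in the SD cultures (73.7-fold lower, 44.6 to 132). Its TE was 0.328 and 0.145 in the urea cultures, against 1.19 and 0.950 in the SD cultures (−1.98 ± 0.38, adjusted p = 0.000701, and 0.0783 without urea culture 2). GDH3, a glutamate dehydrogenase, was of the same kind, with an RNA change of −1.06, a footprint change of −2.34 and a TE change of −1.27 ± 0.29 (adjusted p = 0.00441, and 0.258 without urea culture 1). In PUT1, proline oxidase, and CPS1, a vacuolar carboxypeptidase, the footprints fell less than the RNA. PUT1 RNA fell by 2.16 on the log2 scale and its footprints fell by 1.53, so its TE rose by 0.63 (adjusted p = 0.0215, and 0.156, 0.2 and 0.0926 without urea culture 1, urea culture 2 or SD culture 2). CPS1 RNA fell by 2.53 and its footprints fell by 1.96 (TE 0.58, adjusted p = 0.000597, and 0.247 without urea culture 1).

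**Figure D3:**
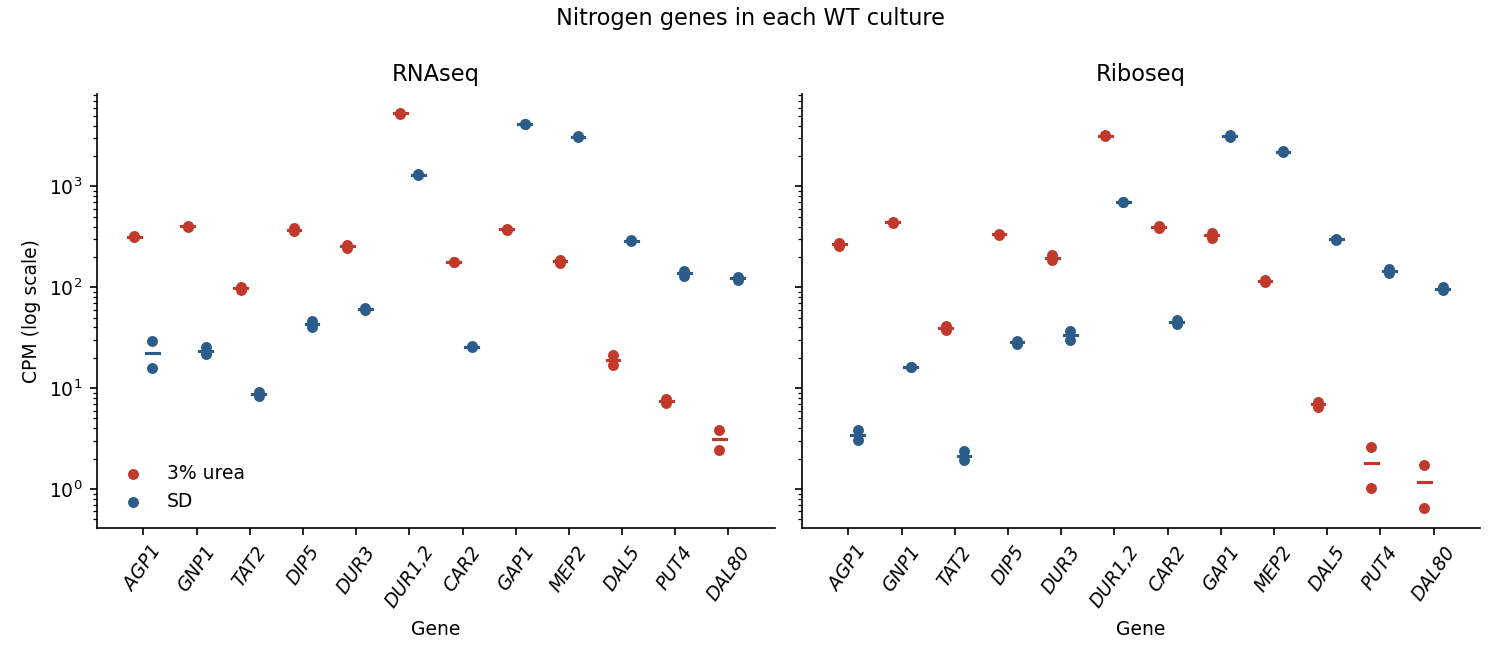
RNA (left) and footprints (right) of 12 nitrogen genes in each culture, in CPM on a log scale, with urea cultures left of SD cultures, 1 point a culture and a line at the mean. The first 7 genes are higher in both urea cultures and the last 5 lower, and the gap of AGP1, DAL5 and PUT4 is wider for footprints than for RNA.

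By list, the 25 tested of 27 repressible nitrogen permeases and regulators had 17 genes lower and 2 higher for footprints, and the same numbers for RNA, with 3 higher and 1 lower for TE. Without urea culture 1 TE was called for 0 higher and 1 lower, and without urea culture 2 for 1 higher and 0 lower. RNA falls were 11 without SD culture 1. Their median changes were −0.47 for RNA, −0.56 for footprints and 0.14 for TE, beside −0.01, −0.01 and −0.00 over all 5213 genes. The 10 genes of ammonium assimilation and uptake had 7 lower for RNA, 7 lower and 1 higher for footprints, and medians of −0.81 and −0.87. Among them GDH1, the main glutamate dehydrogenase in ammonium, changed by −1.34 in RNA and −1.11 in footprints, while GLN1, glutamine synthetase, was not called (footprint change 0.15). The GATA activator gene GAT1 fell by 1.23 in RNA and 0.97 in footprints. The 13 genes of allantoin and urea use split, with 4 higher and 6 lower for footprints and 4 higher and 5 lower for RNA.

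The GATA factors bind the core GATAA, and for 4 of the genes that fell most the match nearest the start codon is printed, with its flanks. They were read from the RefSeq sequence of build R64, on the strand of the gene, with the core in capitals (TTATC is the same core on the other strand).
DAL80: ggatattgtTTATCtgccgtcat
PUT4: tccagtgctGATAAcaagaagaa
DAL5: caaaacaagGATAAtcaaatagt
MEP2: ccctgtgccTTATCaatgaagta
The DAL80 stretch is at chrXI:506835-506857 (+), with its core 50 nucleotides before the start codon, PUT4 at chrXV:989081-989103 (−) and 308 before, DAL5 at chrX:719624-719646 (+) and 29 before, and MEP2 at chrXIV:357212-357234 (+) and 228 before. In the 500 nucleotides before the start codon, with both strands searched, GATAA occurred at least 2 times in 22 of 27 repressible nitrogen genes (81.5%) and 11 of 13 allantoin and urea genes (84.6%), beside 45.3% of 6025 genes. DAL5 and DAL80 had 7 matches each, MEP2 had 8 and PUT4 had 2. The shares also cover genes that rose, of which DUR3 had 5 matches, DUR1,2 and DIP5 had 4 each and CAR2 had 1. A match is a description of the letters and not a measured site.

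In GCN4 (YEL009C, chrV:138918-139763, minus strand) the footprints opposed the RNA. Its RNA was at 517 and 564 CPM in the urea cultures, against 613 and 633 CPM in the SD cultures, and its footprints were at 182 and 190.4 CPM in the urea cultures, against 87.3 and 76.7 CPM in the SD cultures. Footprints were higher in both urea cultures than in both SD cultures, while RNA was lower in both. Its RNA changed by −0.20 ± 0.05 (adjusted p = 0.00939), its footprints by 1.18 ± 0.08 (adjusted p = 5.5e-12) and its TE by 1.38 ± 0.10 (adjusted p = 7.69e-14), with TE at 0.352 and 0.338 in the urea cultures, against 0.142 and 0.121 in the SD cultures. The TE call of GCN4 was kept in every alternative fit. The 4 short reading frames ahead of GCN4 are shown because ribosomes read them before the coding sequence, and whether their footprints were counted into the gene is not given in the sources used here. Each is printed from its start codon to its stop codon in capitals, on the minus strand of chromosome V in build R64.
frame 1: cattgaaaaATGGCTTGCTAAaccgattat
frame 2: taagagaattATGTGTTAAatttattgaa
frame 3: attgctatcATGTACCCGTAGaattttatt
frame 4: ttattcaagATGTTTCCGTAAcggttacct
Their start codons are 361, 293, 176 and 151 nucleotides before that of GCN4, and they lie at chrV:140104-140133, chrV:140038-140066, chrV:139919-139948 and chrV:139894-139923.

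Of 9 regulators around Gcn2 and Gcn4, footprints rose for 4 and fell for 1, RNA rose for 3 and fell for 1, and TE rose for 2 and fell for 1. By pattern 1 followed its RNA, 1 exceeded it, 1 was damped, 1 was opposed, 2 had another pattern and 3 had no call. Their medians were 0.07 for RNA, 0.27 for footprints and 0.20 for TE, or −0.05 for TE with the length trend removed. PCL5, a cyclin that marks Gcn4 for breakdown and is itself a Gcn4 target, had 106 and 99.3 CPM in the urea cultures, against 44.6 and 50.9 CPM in the SD cultures of RNA, which rose by 1.10, while its footprints were at 4.30 and 8.56 CPM in the urea cultures, against 5.89 and 8.36 CPM in the SD cultures and overlapped between the groups. Its TE change was −1.34 ± 0.28 (adjusted p = 0.00214, and 0.372 without urea culture 1). In the amino acid synthesis lists, footprints followed the RNA at 6 of 13 arginine, 7 of 13 branched-chain, 5 of 7 histidine, 5 of 11 lysine and 3 of 14 aromatic amino acid genes. Footprints rose for 5 of 13 arginine, 7 of 13 branched-chain, 5 of 7 histidine, 5 of 11 lysine and 5 of 14 aromatic amino acid genes, with RNA higher for 5, 9, 6, 7 and 5, and TE was called for 0, 0, 0, 1 and 1 of them, lower each time. Footprints fell for 1, 1, 1, 2 and 2 members of these lists. HIS3 of the histidine list and LEU2 of the branched-chain list are on the plasmid, whose genes were all called higher in RNA. The footprint rises were 3 for arginine genes without urea culture 1, and for aromatic genes 2 without SD culture 1, 3 without SD culture 2 and 2 without urea culture 2. ARG1, argininosuccinate synthetase, changed by 0.62 in RNA and 0.69 in footprints, HIS4 by 0.39 and 0.53, and LEU9 by 0.85 and 0.97. LYS20, homocitrate synthase, changed by 1.11 and 1.01, and 48.6% of its 28-nucleotide windows occur in another gene, so its values are uncertain. The Gcn4 core TGACTC occurred before 11 of 13 arginine genes (84.6%), 10 of 13 branched-chain genes (76.9%) and 6 of 7 histidine genes (85.7%). It occurred before 5 of 11 lysine genes (45.5%) and 6 of 14 aromatic amino acid genes (42.9%). The share over all 6025 genes was 12.6%.

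**Figure D4:**
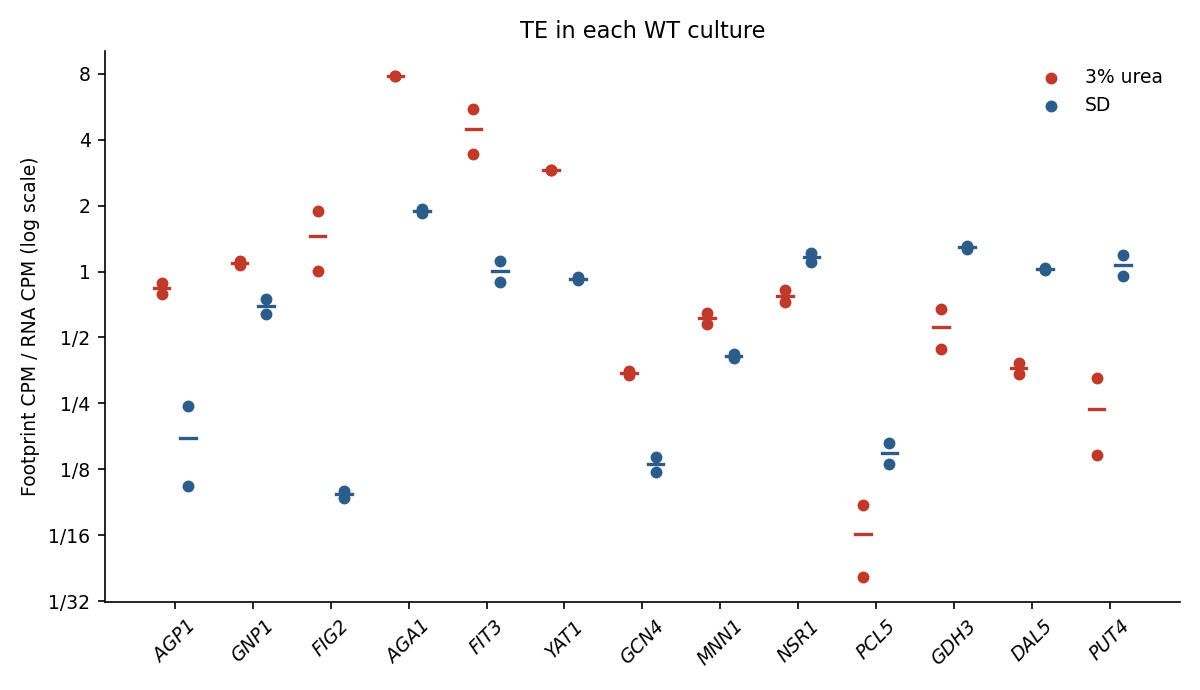
TE (footprint CPM over RNA CPM, log scale) of 13 genes in each culture, with urea cultures left of SD cultures, 1 point a culture and a line at the mean. The groups do not overlap for any of the 13, but lack of overlap was part of the rule that named the largest calls, so it is not a finding. AGP1, GNP1, FIG2, AGA1, FIT3, YAT1, GCN4 and MNN1 are higher in urea, and NSR1, PCL5, GDH3, DAL5 and PUT4 are lower.

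Several genes of mating were higher in footprints, FIG2 without an RNA call. FIG2 (YCR089W, chrIII:267434-272263, plus strand), a cell wall adhesin made on mating, had 11.8 and 13.9 CPM in the urea cultures, against 14.1 and 13.9 CPM in the SD cultures of RNA, with the groups overlapping. Its footprints were at 22.4 and 14.04 CPM in the urea cultures, against 1.30 and 1.38 CPM in the SD cultures, from 104 and 41 counts in the urea cultures, against 23 and 21 in the SD cultures. The footprint change was 3.80 ± 0.27 and the TE change 3.90 ± 0.36 (adjusted p = 6.09e-11). The TE call of FIG2 was not kept with DESeq2. The urea cultures differed from each other in this gene, but both were above both SD cultures. AGA1 (YNR044W, chrXIV:703699-705876, plus strand), the anchor of a-agglutinin, had 16.3 and 16.7 CPM in the urea cultures, against 7.77 and 8.74 CPM in the SD cultures of RNA and 128 and 130.5 CPM in the urea cultures, against 14.3 and 16.9 CPM in the SD cultures of footprints. Its TE was 7.83 and 7.79 in the urea cultures, against 1.84 and 1.93 in the SD cultures (2.05 ± 0.27, adjusted p = 2.37e-06). FUS1, needed for cell fusion, had 22.6 and 32.2 CPM in the urea cultures, against 5.72 and 5.20 CPM in the SD cultures of footprints, an RNA change of 1.16 and a TE change of 1.12 ± 0.29 (adjusted p = 0.0134, and 0.0516 to 0.139 with any 1 culture left out). Genes of mating that followed their RNA included AGA2, the binding subunit of a-agglutinin (1.07 and 1.29), BAR1, the protease that degrades α-factor (0.75 and 1.01), and STE2, the α-factor receptor (0.31 and 0.55). Of the 8 a-specific genes, footprints rose for 5 and fell for 1, and TE rose for 0 and fell for 1. The gene that fell was MFA1, with changes of 0.07 in RNA and −0.35 in footprints (TE −0.41, adjusted p = 0.0454). Its TE call was lost with the length trend removed.

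Of 27 tested of 31 pheromone-induced genes, footprints rose for 14 and fell for 1, RNA rose for 12 and fell for 5, and TE rose for 4. Their medians were 0.31 for RNA, 0.48 for footprints and 0.22 for TE, or 0.23 with the length trend removed. The TE rises were 2 without urea culture 1 and 3 with any other culture left out, while RNA rises were 8 and RNA falls 2 without SD culture 1 and RNA falls 2 without SD culture 2. The pheromone response element TGAAACA is printed for FIG2, AGA1 and FUS1, described above, on the strand of the gene with the element in capitals.
FIG2: aaacaacacTGAAACAaacttattg
AGA1: ataattttcTGAAACAatattaaaa
FUS1: tctgtaattTGAAACAaataacgta
They lie at chrIII:267071-267095 (+), chrXIV:703488-703512 (+) and chrIII:71634-71658 (+) in build R64, with the element 348, 196 and 154 nucleotides before the start codon. The element occurred in 23 of 31 pheromone-induced genes (74.2%), beside 12% of 6025 genes. FIG1, of the same list, had 0 matches. Its footprint counts were 18 and 4 in the urea cultures, against 4 and 3 in the SD cultures. Scaled for depth, the summed counts were 13.6-fold higher in urea (exact 95% interval 5.63 to 37.8, for counting error only).

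Higher TE without higher RNA was seen among genes of the secretory pathway and the cell surface. Of 25 Golgi mannosyltransferases, which build the outer sugar chains of wall proteins, TE rose for 8 and fell for 0, footprints rose for 7 and fell for 2, and RNA rose for 0 and fell for 8. RNA falls were 5 without SD culture 1, 2 without SD culture 2 and 5 without urea culture 2, and footprint rises 4 without urea culture 1. Their medians were −0.08 for RNA, 0.15 for footprints and 0.33 for TE, and the TE median was 0.27 to 0.35 with each culture left out and 0.33 with the length trend removed. TE was called higher for 0 without urea culture 1, 4 without urea culture 2, 6 without SD culture 1 and 5 without SD culture 2, and 7 of the 8 calls were kept with the length trend removed. MNN1 (YER001W, chrV:153520-155808, plus strand), which adds the terminal mannose, had 225 and 218 CPM in the urea cultures, against 246 and 256 CPM in the SD cultures of RNA and 146 and 126 CPM in the urea cultures, against 104 and 103 CPM in the SD cultures of footprints. RNA was lower and footprints were higher in both urea cultures. The changes were −0.18 ± 0.06 and 0.41 ± 0.08, and the TE change was 0.59 ± 0.11 (adjusted p = 0.000244, and 0.096 without urea culture 1). MNN5 and VAN1 had TE changes of 0.49 and 0.44 (adjusted p = 0.00285 and 0.0158). The MNN5 call was lost without urea culture 1 (0.109) and urea culture 2 (0.059), and the VAN1 call without urea culture 1 (0.224), urea culture 2 (0.111) and SD culture 1 (0.124). Of 26 N-glycosylation genes TE rose for 3, and of 11 O-mannosylation genes for 2, and 0 of either were kept with the length trend removed or without urea culture 1.

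Of 53 tested of 63 cell wall genes, RNA fell for 34 and rose for 3, footprints fell for 18 and rose for 6, and TE rose for 12 and fell for 0. TE was called higher for 0 without urea culture 1, 8 without urea culture 2, 7 without SD culture 1 and 5 without SD culture 2, and 7 of the 12 calls were kept with the length trend removed. RNA falls were 19 without SD culture 2. Their medians were −0.28, −0.13 and 0.13. TOS1 and SCW10, wall proteins related to glucanases, had RNA changes of −0.71 and −0.71, footprint changes of −0.17 and −0.13, and TE changes of 0.54 and 0.58 (adjusted p = 0.000258 and 0.000163, and 0.203 and 0.0526 without urea culture 1). The same held for MSB2, a mucin-like sensor of the osmotic and filamentous pathways. It had 109 and 109 CPM in the urea cultures, against 168 and 168 CPM in the SD cultures of RNA, lower in urea, and 116 and 108 CPM in the urea cultures, against 104 and 109 CPM in the SD cultures of footprints, where the groups overlapped (0.70 ± 0.11 for TE, adjusted p = 6.73e-05). Other wall genes followed their RNA down, such as PIR3 (−1.65 and −1.93) and CCW12 (−0.38 and −0.41). FKS1, the main glucan synthase, had a TE change of 0.28 (adjusted p = 0.0488) that was −0.01 with the length trend removed, and its call was lost with any 1 culture left out (0.077 to 0.491).

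In the endoplasmic reticulum, KAR2, the chaperone BiP, had 1784 and 1764 CPM in the urea cultures, against 1319 and 1398 CPM in the SD cultures of RNA and 1145 and 1055 CPM in the urea cultures, against 615 and 601 CPM in the SD cultures of footprints. Footprints exceeded the RNA, with changes of 0.86 ± 0.07 and 0.38 ± 0.05 (TE 0.47 ± 0.09, adjusted p = 0.000545, and 0.0972 without urea culture 1). HAC1, the factor of the unfolded protein response whose RNA is spliced by Ire1, had an RNA change of −0.07 and a footprint change of −0.92 (TE −0.85 ± 0.20, adjusted p = 0.00551, and 0.348 without urea culture 1 and 0.0501 without urea culture 2). IRE1 had −0.21 and 0.52 (TE 0.73 ± 0.19, adjusted p = 0.0171), a call lost without urea culture 1 (0.4), urea culture 2 (0.0564) or SD culture 1 (0.103) and with the length trend removed (0.116). Of 23 genes of this list, footprints rose for 8 and fell for 1, and TE rose for 3 and fell for 1. The TE rises were 0 without urea culture 1, 1 without urea culture 2 and 1 with the length trend removed, TE falls were 0 without either urea culture and 2 without SD culture 2, and footprint rises were 5 without SD culture 1.

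Storage carbohydrate genes had more rises of footprints and TE than of RNA. Of 18 genes of trehalose and glycogen metabolism, footprints rose for 7 and fell for 3, RNA rose for 1 and fell for 6, and TE rose for 5, of which 2 were kept with the length trend removed. RNA falls were 3 without SD culture 1. Without urea culture 1 TE was called for 0 of them, and without urea culture 2 for 3. ATH1, acid trehalase, had an RNA change of −0.16, a footprint change of 0.83 and a TE change of 0.99 ± 0.18 (adjusted p = 0.000235, and 0.056 without urea culture 1). GLG1, which primes glycogen, had −0.75, 0.42 and 1.17 ± 0.29 (adjusted p = 0.0109, and 0.208 without urea culture 1, 0.101 without urea culture 2 and 0.144 without SD culture 1). The medians of the list were −0.10 for RNA, 0.15 for footprints and 0.28 for TE.

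Ribosomal protein genes rose in RNA, and their footprint result depended on the length trend. Of 138 cytosolic ribosomal protein genes RNA rose for 89 and fell for 1, while footprints rose for 19 and fell for 7, and TE rose for 1 and fell for 20. The RNA rises were 44 without SD culture 1 and 57 without SD culture 2. The median change was 0.21 for RNA and 0.07 for footprints, and under library totals the footprint median was −0.05. The TE median was −0.14, but 0.01 with the length trend removed, where 4 of the 20 lower calls were kept and footprints rose for 94 and fell for 0. TE was called lower for 0 without urea culture 1, 7 without urea culture 2 and 10 without SD culture 1. Footprint rises were 35 without SD culture 1, 7 without SD culture 2 and 9 without urea culture 2. These genes are short, with a median coding length of 459 nucleotides for the large subunit, beside 1266 over all genes, and 60 of the 138 share over 20% of their 28-nucleotide windows with another gene, so members of a pair cannot be told apart with certainty. RPL3, which is a single gene, had an RNA change of 0.36 ± 0.04 and a footprint change of 0.13 ± 0.08 that was not called (adjusted p = 0.218). RPS2, also single, had 3282 and 3189 CPM in the urea cultures, against 2462 and 2632 CPM in the SD cultures of RNA and 2428 and 2520.0 CPM in the urea cultures, against 2434 and 2533 CPM in the SD cultures of footprints, with footprints overlapping between the groups (TE −0.35 ± 0.09, adjusted p = 0.0101, and 0.166 with the length trend removed, 0.26 without urea culture 1, 0.0784 without urea culture 2 and 0.0501 without SD culture 1).

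In ribosome biogenesis genes, RNA rose more often than footprints, also after the length trend was removed. Of 120, RNA rose for 73 and fell for 0, footprints rose for 18 and fell for 4, and TE rose for 1 and fell for 12. The RNA rises were 28 without SD culture 1 and 32 without SD culture 2, beside footprint rises of 13 and 12. Their medians were 0.30 for RNA, 0.08 for footprints, −0.21 for TE and −0.23 for TE with the trend removed, and 7 of the 12 lower calls were kept. The TE median was −0.25 to −0.17 with each culture left out, and TE was called lower for 0 without urea culture 1, 3 without urea culture 2, 3 without SD culture 1 and 7 without SD culture 2. The footprint median was −0.04 under library totals. NSR1, nucleolin, had 499.9 and 492 CPM in the urea cultures, against 354 and 359.6 CPM in the SD cultures of RNA and 362 and 404 CPM in the urea cultures, against 431 and 398 CPM in the SD cultures of footprints. Its RNA was higher in both urea cultures while its footprints overlapped between the groups. Its TE was 0.725 and 0.822 in the urea cultures, against 1.22 and 1.11 in the SD cultures (−0.59 ± 0.10, adjusted p = 7.23e-05, and 0.0546 without urea culture 1). KRR1 and REI1, assembly factors of the small and the large subunit, had RNA changes of 0.48 and 0.32 and footprint changes of −0.11 and −0.32 (TE adjusted p = 0.0123 and 0.0151). Either TE call was kept without SD culture 2 and lost with any other culture left out, at 0.0795 to 0.303 for KRR1 and 0.0887 to 0.277 for REI1.

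Mitochondrial ribosomal proteins had lower footprints and few RNA calls. Of 72, footprints fell for 32 and rose for 0, RNA fell for 2 and rose for 0, and TE fell for 2, or 0 with the length trend removed. Their medians were −0.07 for RNA, −0.30 for footprints and −0.19 for TE, or −0.10 with the length trend removed. RSM19 had 13.5 and 14.4 CPM in the urea cultures, against 23.8 and 23.9 CPM in the SD cultures of footprints, with both urea cultures lower, and 32.1 and 29.7 CPM in the urea cultures, against 40.02 and 37.1 CPM in the SD cultures of RNA (−0.78 and −0.33, TE adjusted p = 0.219). Footprints were called lower for 12 and 19 without SD culture 1 or 2, for 17 without urea culture 1, and for 11, with 1 higher, after the length trend was removed.

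RNA of respiratory genes fell and footprints followed. Of 36 nuclear-encoded genes of the respiratory chain and ATP synthase, RNA fell for 33 and rose for 1, footprints fell for 35 and rose for 1, and 32 followed their RNA. Their medians were −0.55 for RNA and −0.71 for footprints. INH1, which inhibits the ATP synthase when run backwards, had 39.6 and 43.8 CPM in the urea cultures, against 138 and 115 CPM in the SD cultures of footprints (−1.62 ± 0.11, and −1.31 ± 0.11 for RNA). ATP1, the α subunit of ATP synthase, had 1018 and 1126 CPM in the urea cultures, against 1888 and 1713 CPM in the SD cultures (−0.75 ± 0.08, and −0.79 ± 0.05 for RNA). The gene that rose was CYC7, the cytochrome c isoform of low oxygen (1.31 in RNA and 1.35 in footprints). Of 20 TCA cycle genes, footprints fell for 10 and rose for 5. COX3, which the mitochondrion itself encodes, had 11 and 8 footprint counts in the urea cultures, against 151 and 163 in the SD cultures, or 2.36 and 2.74 CPM in the urea cultures, against 8.55 and 10.7 CPM in the SD cultures, beside 411 and 447 CPM in the urea cultures, against 579 and 539.8 CPM in the SD cultures of RNA (TE −1.54 ± 0.30, adjusted p = 0.000641, and 0.148 without urea culture 1). The COX3 footprint change rests on few counts in urea. The 6 tested respiratory genes of mitochondrial DNA had a median TE (log2) of −7.31 and −7.13 in the urea cultures, against −6.75 and −6.17 in SD. Over all genes tested it was −0.60 and −0.60, against −0.59 and −0.57. How fully the protocol recovered footprints of mitochondrial ribosomes was not tested, so the TE of COX3 is uncertain.

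Synthetases, glycolysis genes and the proteasome had no TE calls. Of 21 aminoacyl-tRNA synthetases, footprints rose for 15 and fell for 0, RNA rose for 16, TE was called for 0 and 14 followed. The RNA rises were 10 without SD culture 1 and 10 without SD culture 2, and TE was called higher for 2 without SD culture 1. ILS1, for isoleucine, changed by 0.44 in RNA and 0.69 in footprints, and KRS1, for lysine, by 0.65 and 0.59. Of 22 glycolysis and fermentation genes, footprints rose for 13 and fell for 2, RNA rose for 13 and fell for 2, TE was called for 0 and 13 followed. Their footprint rises were 8 without SD culture 2, 8 without urea culture 1 and 7 without urea culture 2. Of 35 proteasome genes, footprints rose for 18 and fell for 0, RNA rose for 20 and fell for 0, TE was called for 0, and 13 followed while 7 had a call of RNA alone. The RNA rises of the proteasome were 10 without SD culture 1 and 10 without SD culture 2. Under library totals the footprint calls of the proteasome were 7 higher and 2 lower, and the RNA calls 11 higher and 0 lower. Of 11 histone genes, footprints fell for 9 and RNA for 9, such as HHO1, the linker histone (−0.75 and −0.79), and TE fell for 2. With the length trend removed histone footprints fell for 6 and TE for 0, and TE fell for 0 or 1 with any 1 culture left out. Of 38 cytosolic chaperones, footprints rose for 19 and fell for 3, TE rose for 3 and fell for 3, and 18 followed, 8 had a call of RNA alone and 4 were damped. The TE rises were 0 without SD culture 2, 0 without urea culture 1 and 1 without urea culture 2, and the TE falls 1 without SD culture 2 and 0 with any other culture left out. HSP104, the disaggregase, changed by 0.57 in RNA and 0.82 in footprints (TE 0.25), and HSP30, a small plasma membrane stress protein, by 0.25 and 1.28 (TE 1.03 ± 0.20, adjusted p = 0.000785, and 0.096 without urea culture 1 and 0.077 without SD culture 2).

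**Figure D5:**
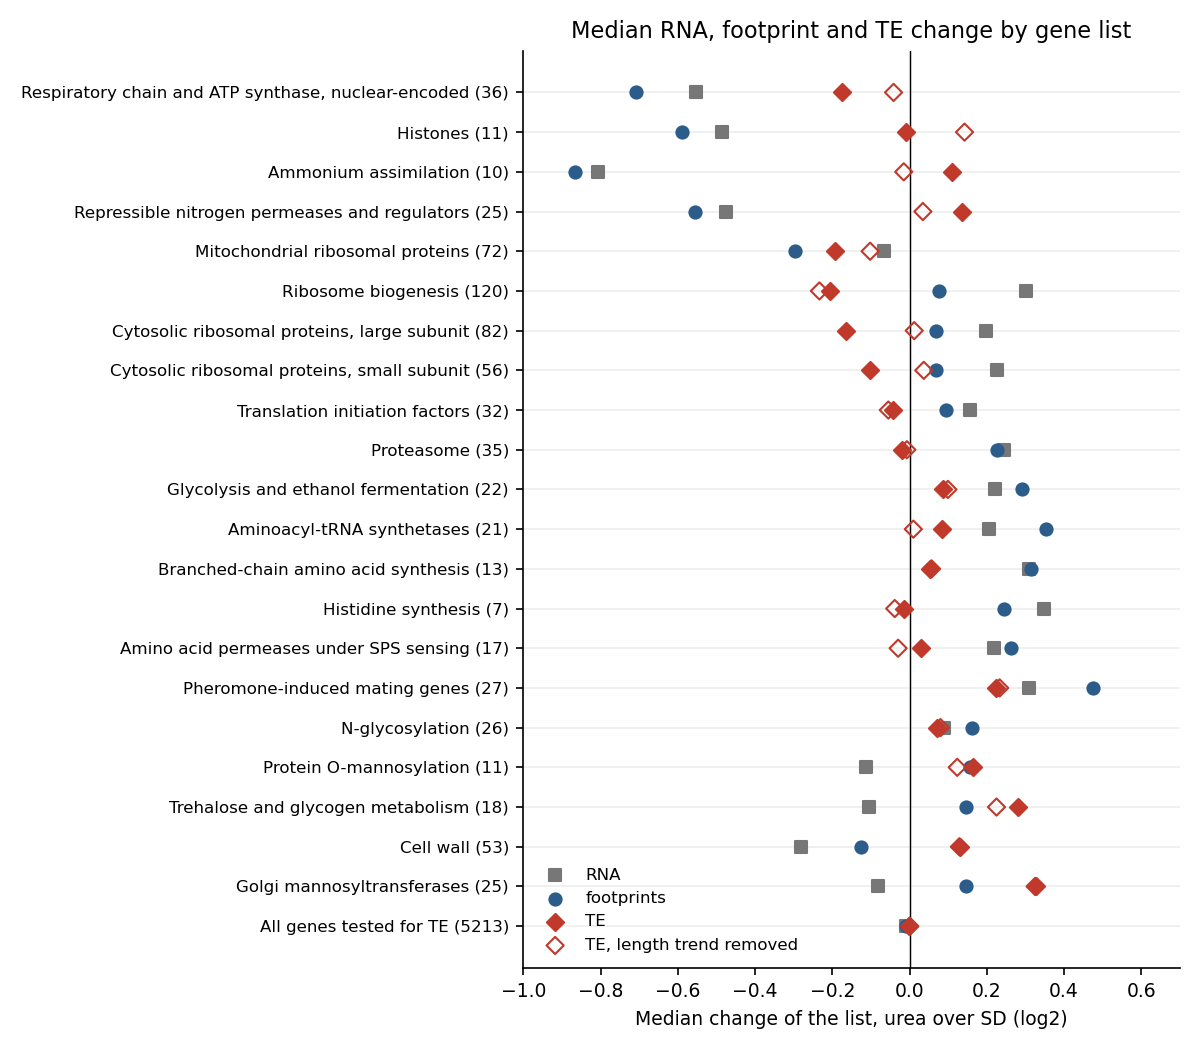
Median change (log2, urea over SD) of RNA, footprints and TE over the tested members of 21 gene lists and over all genes, with TE also given after the length trend was removed (open). Respiratory genes, histones and nitrogen genes lie left of 0 for both RNA and footprints. In ribosomal protein and ribosome biogenesis genes the footprint median falls short of the RNA median, and in mannosyltransferases, cell wall and trehalose genes it lies to its right.

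Of the 22 genes whose footprints opposed their RNA, 10 with the largest difference were named by rule: GCN4, MNN1, TIM13, RRP4, RPL42B, KHA1, MDV1, EFT1, TPO4 and MMS1. TPO4, a polyamine exporter, had 119 and 113 CPM in the urea cultures, against 145 and 164 CPM in the SD cultures of RNA and 118 and 110.3 CPM in the urea cultures, against 95.6 and 89.7 CPM in the SD cultures of footprints, lower in RNA and higher in footprints in both urea cultures (TE 0.72 ± 0.12, adjusted p = 7.7e-05). PDR5, a multidrug exporter, was opposed with a smaller step, −0.28 in RNA and 0.24 in footprints, and its TE adjusted p was 0.000163, but 0.0969 with the length trend removed. TIM13, a small chaperone of the mitochondrial intermembrane space, was the reverse, with 0.50 in RNA and −0.45 in footprints (TE adjusted p = 0.0044, and 0.0731 without urea culture 1 and 0.101 without urea culture 2). EFT1 shares nearly all of its sequence with EFT2 and RPL42B 66.7% of its 28-nucleotide windows with its copy, so their values are uncertain. The number of opposed genes was 3 with DESeq2, 5 with the length trend removed and 1 in the fit of all 16 libraries.

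Some single genes had higher footprints and no RNA call, and PDR12 had footprints that exceeded its RNA. YAT1, a carnitine acetyltransferase, had 16.9 and 15.9 CPM in the urea cultures, against 14.97 and 11.8 CPM in the SD cultures of RNA and 49.2 and 46.2 CPM in the urea cultures, against 13.6 and 11.1 CPM in the SD cultures of footprints, with footprints far apart between the groups (TE 1.66 ± 0.26, adjusted p = 4.3e-05). FIT3, a mannoprotein of iron retention, had 38.5 and 35.3 CPM in the urea cultures, against 10.98 and 9.74 CPM in the SD cultures of footprints and an RNA change of −0.21 (TE 2.04 ± 0.30, adjusted p = 1.76e-05). HMG2, an isozyme of HMG-CoA reductase, had 89.00 and 93.1 CPM in the urea cultures, against 54.3 and 59.3 CPM in the SD cultures of footprints and an RNA change of −0.03 (TE 0.71 ± 0.12, adjusted p = 0.000103). PDR12, an exporter of weak acids, rose in RNA and more in footprints, with 314 and 269 CPM in the urea cultures, against 98.2 and 95.5 CPM in the SD cultures of footprints and 435 and 453 CPM in the urea cultures, against 247 and 249.9 CPM in the SD cultures of RNA (TE 0.76 ± 0.10, adjusted p = 1.98e-06). In these 4 genes both urea cultures were above both SD cultures in footprints, and lack of overlap was part of the rule that named the largest calls. The TE calls of YAT1 and FIT3 were not kept with DESeq2. All 5 genes on the plasmid were called higher in RNA (median 0.39), with footprints called higher for 2 and TE called lower for 1. TIF3 itself, read from the plasmid, changed by 0.52 in RNA and 0.23 in footprints (TE −0.29 ± 0.09, adjusted p = 0.047, and 0.505 without SD culture 1, 0.43 without urea culture 1, 0.152 without urea culture 2 and 0.134 with the length trend removed).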

How the data were processed

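RNAseq and Riboseq were read from the same extracts of 4 WT cultures. Per the study, cells were taken by vacuum filtering and frozen, lysates with cycloheximide were digested with RNase, and monosome footprints and fragmented total RNA were depleted of rRNA. The authors trimmed reads with cutadapt, removed rRNA reads with Bowtie, aligned the rest to SGD transcripts (sacCer3, R64.2.1) and deposited raw counts of unique reads per gene from Ribocount. Whether leader reads were counted is not given in the sources used here. Reads are not independent molecules, since PCR copies were not removed by identifiers. The table holds 6692 genes, of which 445 had no count in any WT library. Its 24 columns of the authors' own DESeq2 fold changes and adjusted p-values were not used.

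Counts were fitted with edgeR 4.0.16 in R 4.3.3 (quasi-likelihood, TMM within each assay, filterByExpr, Benjamini-Hochberg threshold 0.05). The TE change was the contrast of footprint change less RNA change in one fit of 8 libraries. SE and CPM use the same scaling, and the prior count is 0.125. Each SE is the size of the log2 change divided by the square root of the test's F statistic. It is not a fitted standard error, and for large changes at few counts it can be too small. The script recovered known changes in counts simulated with a fixed spread and no trend on coding length. That check does not cover the length trend or the dependence of calls on single cultures. Exact permutation of 2 against 2 cultures cannot give a p under 0.333, so none was used. Named genes were the largest calls of each assay with at least 10 CPM and groups that do not overlap, the 10 most opposed genes, a core set, and up to 3 footprint and 3 TE calls of each of 47 lists. The members and lists were chosen with earlier results of these data known, so no list was tested. Gene names, lengths and sequences are from RefSeq R64, in which 6007 genes matched. Genes that share over 20% of their 28-nucleotide windows were marked as uncertain.

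Whether equal replicate numbers pair urea and SD cultures could not be told. The deviations of urea and SD cultures of the same number had r = −0.04 in Riboseq and −0.03 in RNAseq across genes. Riboseq and RNAseq libraries of the same culture gave −0.007 in urea and −0.035 in SD. The check therefore finds no link even where the study used the same extracts. TE in each culture joins the Riboseq and RNAseq libraries of equal replicate number. Alternatives were DESeq2 1.42.0, median-of-ratios scaling, library totals, other filters on low counts, a replicate block, thinned Riboseq libraries, all 16 libraries in one fit, and each culture left out in turn. Counts of a list under an alternative are over the members tested in that assay. Removal of a loess trend on coding length (span 0.3) was added after the data were seen.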

Additional observations from a re-analysis of the deposited data

Results flagged for a closer look

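The TE response to urea was set against that of the Δntd strain in the fit of all 16 libraries, by the interaction term. Of 5251 genes tested, 32 differed at an adjusted p under 0.05 (edgeR's quasi-likelihood test, Benjamini-Hochberg), and 958 had an unadjusted p under 0.05. Of 312 named genes tested, 9 differed, and the 8 that were also called for TE in WT are given here as WT less Δntd on the log2 scale. FIG2 differed by 4.52, with a TE change of 3.87 in WT and −0.65 in Δntd. AGP1 differed by 2.15 (2.44 in WT and 0.29 in Δntd) and GCN4 by 1.38 (1.37 in WT and −0.01 in Δntd). PUT1 differed by 1.28 (0.63 and −0.65), GNP1 by 1.06 (0.65 and −0.41), MNN1 by 1.04 (0.57 and −0.47) and FKS1 by 0.83 (0.27 and −0.56), each given for WT and then Δntd. COX3 went the other way, by −1.75 (−1.56 in WT and 0.19 in Δntd), with few footprint counts in the WT urea cultures. The adjusted p was 0.0285 for FIG2, AGP1, GCN4, PUT1, GNP1 and MNN1, 0.037 for COX3 and 0.0462 for FKS1. The Riboseq libraries of Δntd in urea had a coefficient of variation of 0.239, against 0.0459 for WT in urea.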

How the results depend on the processing

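Depth and the 2 cultures a group limit the TE calls. With each culture left out, footprint calls were 525 to 691 higher and 503 to 654 lower, TE calls 18 to 94 and 9 to 86, and RNA calls 418 to 824 and 328 to 690. Genes were then 462 to 656 for footprints that followed, 7 to 19 exceeded, 10 to 85 footprints alone, 7 to 54 damped, 0 to 16 opposed and 208 to 816 RNA alone. Lists with a positive median were 22 to 31 of 47 for TE and 31 to 34 for footprints. The lone culture of a group was then assumed to vary like the others.

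With DESeq2, 436 genes were lower for footprints, 88 higher and 52 lower for TE, and 514 higher and 373 lower for RNA, with 527 followed, 21 exceeded, 62 footprints alone, 41 damped, 3 opposed and 283 RNA alone. With thinned Riboseq libraries TE had 89 and 87, with 27 exceeded, 64 footprints alone and 67 damped. In the fit of all 16 libraries, where the Δntd urea footprints widen the spread, footprints had 250 higher and 237 lower, TE 6 and 1, with 379 followed, 3 exceeded, 3 footprints alone, 0 damped, 1 opposed and 1152 RNA alone. Library totals gave 478 and 1207 for footprints and 548 and 1302 for RNA. Without the length trend, TE had 88 and 61, with 52 footprints alone, 51 damped and 5 opposed.

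Some calls changed sign with the length trend removed, and the values here are log2 changes under that removal. The footprints of RPS29B, MFA1 and TRX2, called lower in the main fit, changed by 0.153, 0.0366 and 0.0102 and were not called. Those of MFA2, not called in the main fit, were called higher with a change of 0.253. The TE of GCN1, REA1 and FKS1, called higher in the main fit, changed by −0.0462, −0.0543 and −0.0059 and was not called. The RNA change of PDC1, not called with all cultures, was 0.157 (log2) without urea culture 1 and −0.202 without urea culture 2. The causes were not tested. With the replicate block, footprints had 774 higher and 754 lower, TE 155 and 122 and RNA 894 and 792, and of 563 calls on named genes 545 were kept and 18 lost.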

Other observations

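Nutrient transporters outside nitrogen also moved. Of 18 tested of 22 phosphate uptake genes, footprints rose for 6 and fell for 2, and TE rose for 3, or 1 with the length trend removed, 2 without SD culture 1 and 0 with any other culture left out. Footprint falls were 0 without SD culture 1, without urea culture 1 and with the length trend removed. PHO84, the high-affinity phosphate carrier, had 89.0 and 95.9 CPM of footprints in the urea cultures, against 41.3 and 39.7 CPM in the SD cultures, and followed its RNA (1.18 and 0.92 on the log2 scale). Of 21 tested of 27 iron uptake genes, footprints rose for 8 and fell for 3 and TE rose for 4. With a culture left out, TE rises were 1 without SD culture 1 and 2 for each other culture, as with the length trend removed, and footprint rises were 4 without urea culture 1. ENB1, a siderophore transporter, had 109 and 85.3 CPM of footprints in the urea cultures, against 24.8 and 23.5 CPM in the SD cultures. The sulfate permease SUL1 fell to 91.6 and 95.5 CPM in the urea cultures, against 167 and 173 CPM in the SD cultures. HXT1, a low-affinity glucose transporter, had 758 and 650.3 CPM of footprints in the urea cultures, against 323 and 339 CPM in the SD cultures. In each of these 4 genes the groups did not overlap, which describes the printed values and was not set against other genes.

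Stress genes did not move as one group. HSP12 and CTT1, general stress genes, fell by 0.53 and 1.32 in footprints on the log2 scale, while GPD1, of glycerol synthesis, had a footprint change of 0.39. STL1, a glycerol importer induced by osmotic shock, had too few counts to be tested. Of 31 tested of 33 oxidative stress genes, footprints rose for 5 and fell for 7, or rose for 11 and fell for 4 with the length trend removed. Of 24 tested of 27 osmotic stress and glycerol genes, footprints rose for 7 and fell for 2, and under library totals for 5 and 6. Footprint rises of that list were 4 without SD culture 2 and 4 without urea culture 1.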
